A study of Homo sapiens with 12 samples.

Results

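The miR-532 to miR-502 cluster is a run of 8 miRNA hairpins on the X chromosome, inside the gene CLCN5. Described here are 7 mature miRNAs from it, taken by name, as mature miRNAs of this cluster, from the 1636 in the deposited count table: hsa-miR-532-5p, hsa-miR-532-3p, hsa-miR-500a-3p, hsa-miR-501-3p, hsa-miR-502-3p, hsa-miR-660-5p and hsa-miR-362-5p (written below without the prefix for human, hsa). All 7 were in the table, and 6 had enough counts to be among the 318 miRNAs tested. The exception was miR-532-3p. The miRNAs came from extracellular vesicles, membrane-bound particles shed into the medium, of 6 cancer cell lines: Hutu80, HT55, RCM-1, Car-1, MDST8 and SW1116, with 2 libraries per line. Every line was grown in DMEM/F12 with fetal bovine serum and antibiotics, with no treatment or engineered allele in the labels, and vesicles were purified by ultrafiltration and size-exclusion chromatography. The labels call all 6 lines colorectal (CRC), although Hutu80 is known as a line from a tumour of the duodenum, and they do not say which lines stand for which of the molecular subtypes named in the design (CMS2 and CMS4), so lines were compared with lines. Nor is it stated that a line's 2 libraries stem from separate cultures: p-values then reflect only how these libraries varied, possibly for technical reasons. A bulk vesicle library cannot tell more vesicles with a miRNA from more copies of it per vesicle.

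CLCN5 encodes ClC-5, a chloride-proton exchanger of endosomes that is mutated in Dent disease of the kidney. A miRNA hairpin is cut from its primary transcript by Drosha and then by Dicer, and one arm (5p or 3p) is usually kept as the mature miRNA while the other is degraded. The mature miRNA pairs with messenger RNAs mainly through its seed, bases 2 to 8, and lowers their output. Hairpins that share a transcript can rise and fall together, but arms also differ in how well they are processed, kept and loaded into vesicles.

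In GENCODE release 29 (GRCh38), the 8 hairpins lie on the plus strand between MIR532, at chrX:50003148-50003238, and MIR502, at chrX:50014598-50014683, a span of 11536 bases. CLCN5 itself runs from 49922615 to 50099235 on the same strand. The gaps between neighbouring hairpins run from 264 bases (MIR532 to MIR188) to 4842 bases (MIR188 to MIR500A). Of 9 annotated CLCN5 transcripts, 3 span each hairpin, and in 0 of them does a hairpin touch an exon, so the cluster is intronic throughout.

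Mature sequences of 6 of the 7 members were found in RefSeq (GRCh38.p14). They are shown because the seeds and the shared stretches decide which members can be told apart. The seed is in capitals.
miR-532-5p: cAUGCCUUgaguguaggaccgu
miR-532-3p: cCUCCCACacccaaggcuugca
miR-500a-3p: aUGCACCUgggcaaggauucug
miR-501-3p: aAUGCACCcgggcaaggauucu
miR-502-3p: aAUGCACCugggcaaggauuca
miR-362-5p: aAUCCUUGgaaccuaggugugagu

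miR-501-3p and miR-502-3p have the same seed, AUGCACC. Counted from 1 at the 5′ end, these 22-base miRNAs differ by the substitutions C9U and U22A, written with the base of miR-501-3p first. miR-500a-3p shares an unbroken stretch of 20 bases with miR-502-3p, shifted by its shorter 5′ end, and 13 bases with miR-501-3p. Reads that lack end bases could therefore be divided between miR-500a-3p and miR-502-3p in ways that depend on the authors' counting, so the split between these 2 is uncertain. Among the 6 members whose sequence was found, the other 4 each have a seed that no other of the 6 has.

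Both arms of a hairpin were counted separately, and which arm dominated differed by hairpin. MIR532, MIR500A and MIR502 are printed with both mature arms in capitals, the 5p arm first, because their dominant arms are on opposite sides.
MIR532: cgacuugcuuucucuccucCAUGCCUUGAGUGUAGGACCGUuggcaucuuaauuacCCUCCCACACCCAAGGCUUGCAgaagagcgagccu
MIR500A: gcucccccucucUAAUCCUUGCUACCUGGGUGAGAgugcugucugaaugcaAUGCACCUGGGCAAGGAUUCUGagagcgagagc
MIR502: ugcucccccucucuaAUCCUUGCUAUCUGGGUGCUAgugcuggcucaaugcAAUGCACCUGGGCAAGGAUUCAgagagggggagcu

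From miR-532, 3833 of 3888 counts over all libraries were of the 5p arm (98.6%, 95% Wilson interval 98.2 to 98.9). miR-660 gave 511 of 515 counts from its 5p arm (99.2%, 98.0 to 99.7). miR-362 gave 415 of 419 (99.0%, 97.6 to 99.6). The 5p arm thus made up nearly all counts of these 3 hairpins. In miR-500a the 3p arm led, with 495 of 612 counts (80.9%, 77.6 to 83.8). In miR-501 it took 362 of 493 (73.4%, 69.4 to 77.1), and in miR-502 it took 108 of 127 (85.0%, 77.8 to 90.2). The 3p arms that share a stretch of sequence were thus the major arms of these 3 hairpins. These intervals pool all libraries and cover counting error only. The shares of the arms were not tested between lines.

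The shallowest library, Hutu80 replicate 1, held 71831 counts and the deepest, SW1116 replicate 1, held 622800. There, 1 count equalled 13.9 and 1.61 CPM (counts scaled to the library's total). All levels given are CPM after TMM scaling (factors of 0.642 to 1.46), and a mean ± SD is taken over both libraries of a line. A difference is a log2 difference ± standard error (SE) of a line minus the mean of the other 5 lines unless a pair is named. They and their Benjamini-Hochberg adjusted p-values come from edgeR's quasi-likelihood test over all 318 miRNAs, with a threshold of 0.05. Alternative fits comprise 7 other settings (another scaling, filter, tool or block) and 12 fits that leave out 1 library each. Intestinal epithelial miRNAs checked against the CRC label, 6 in all, were detected in every line. Their summed level was 11575 ± 946 CPM in Hutu80, against line means between 5779 (MDST8) and 145572 (HT55). Low levels were not particular to Hutu80. MDST8 had a lower mean than Hutu80 for each of the 6, and Car-1 for miR-192-5p and miR-194-5p. All 6 were called lower in Hutu80 (16.7% of all tested miRNAs were), by differences from -2.34 ± 0.27 for miR-200b-3p (adjusted p = 1.41e-07) to -1.60 ± 0.25 for miR-192-5p (1.59e-05). The call of miR-141-3p (-1.94 ± 0.65, adjusted p = 0.0215) ended without Hutu80 replicate 1 (0.141), with library totals as the only scaling (0.0591) and in limma-voom (0.0534), and the other 5 calls held in all 19 alternative fits.

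Vesicles of Hutu80 had the highest summed level of the 7 members, at 4517 ± 158 CPM, against line means between 1462 ± 40.2 (SW1116) and 2468 ± 194 (HT55). Of the 6 members tested, 4 were higher in Hutu80 than in the other lines (miR-532-5p, miR-500a-3p, miR-501-3p and miR-660-5p), against 23.0% of all tested miRNAs called higher there. The median difference in Hutu80 was 1.17 over the 6 tested members and 0.09 over all 318 miRNAs. In MDST8, 1 of 6 was lower (miR-501-3p; 22.3% of all tested miRNAs were lower there), and in SW1116 1 of 6 (miR-500a-3p; 16.7%). Across the 6 lines jointly, 4 of 6 members passed, a share close to the 68.2% of all tested miRNAs that did. The number called higher in Hutu80 was 2 without HT55 replicate 2, without Car-1 replicate 1 or 2, or without Hutu80 replicate 2, and 1 without Hutu80 replicate 1. The number called across lines was 2 without HT55 replicate 2, Car-1 replicate 1 or Hutu80 replicate 1 or 2. The count in MDST8 was 0 without Car-1 replicate 1, MDST8 replicate 1 or Hutu80 replicate 2, and the count in SW1116 was 0 without either SW1116 library.

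In HT55, RCM-1 and Car-1, edgeR called 0 of the 6 members in either direction, where 24.2%, 35.8% and 34.6% of all tested miRNAs were called in HT55, RCM-1 and Car-1. At an unadjusted p below 0.05 the count was 0 in HT55, 0 in RCM-1 and 1 in Car-1. The share of all tested miRNAs below that unadjusted limit is not given here. Both DESeq2 and limma-voom called 0 members in each of these lines after adjustment. In Car-1 the count was 1 lower without Car-1 replicate 1 or without Hutu80 replicate 1 or 2 (miR-532-5p in each).

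**Figure D1:**
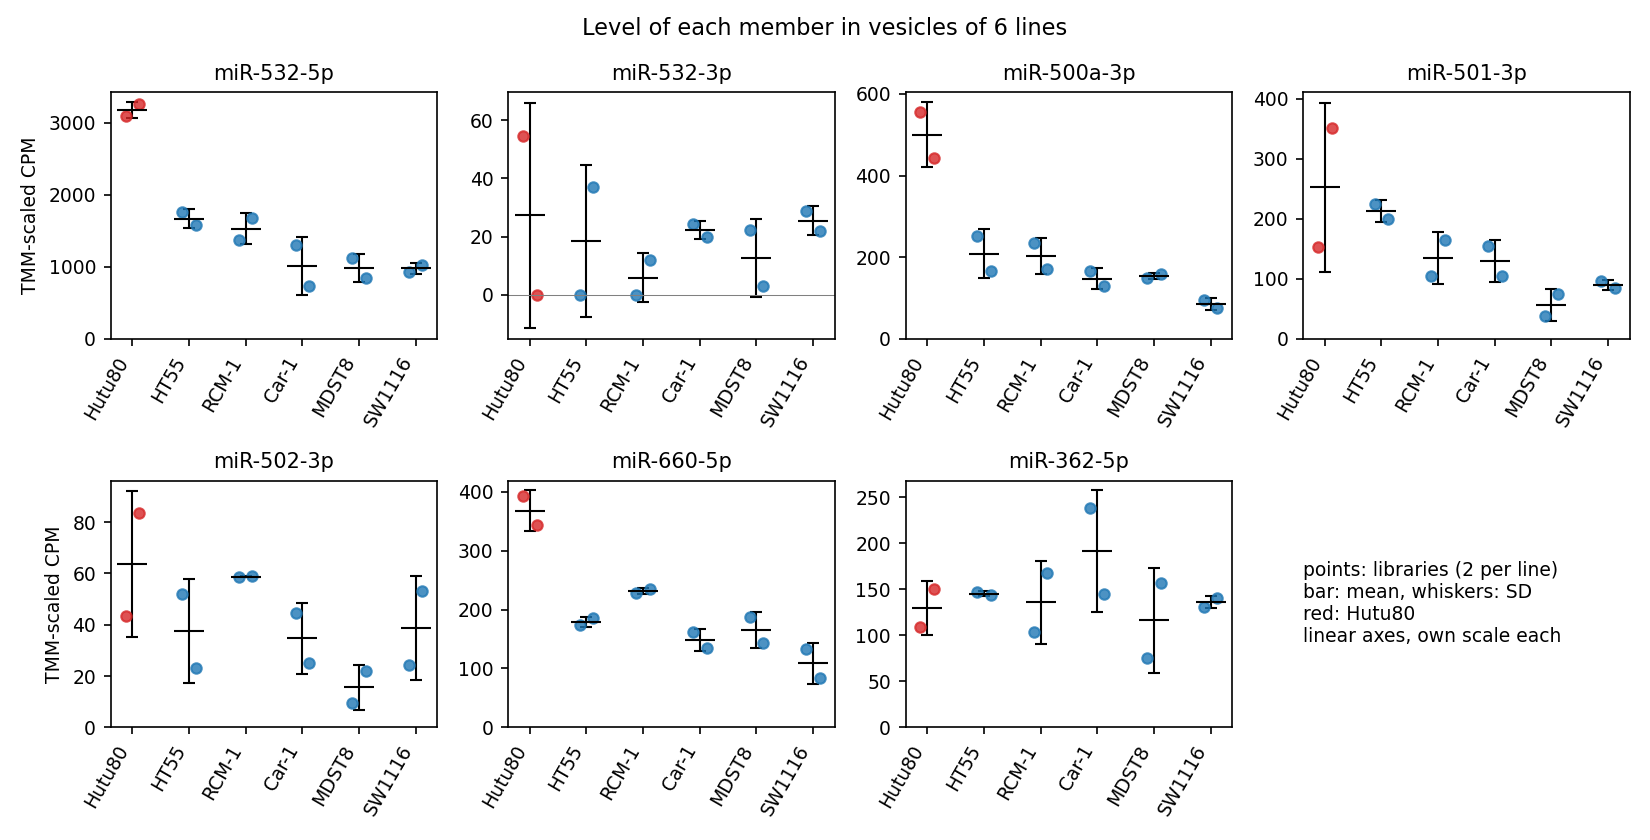
TMM-scaled CPM (linear y axes, a scale for each panel) of the 7 members in each of the 6 lines. Points are libraries, bars are means and whiskers SD (n = 2); the Hutu80 libraries of miR-532-5p (3096 and 3256 CPM) sit above all others (727 to 1757), while those of miR-362-5p (109 and 151) lie inside the range of the other lines (75.9 to 239).

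**Figure D2:**
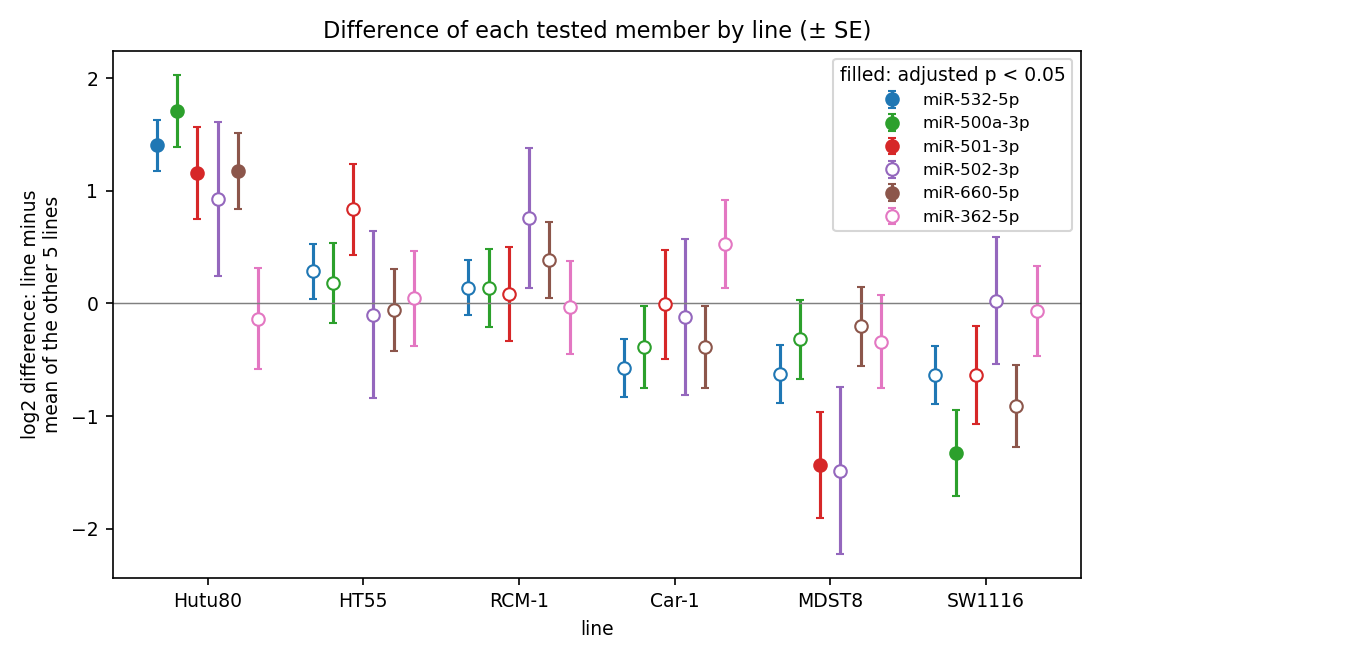
Log2 difference (y axis, ± SE) of each tested member in a line (x axis) from the mean of the other 5 lines; filled points have an adjusted p below 0.05. In Hutu80 4 of 6 points are filled, at 1.16 to 1.71, and miR-362-5p is at -0.13; the filled points below 0 are miR-501-3p in MDST8 and miR-500a-3p in SW1116.

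miR-532-5p, reported to repress the tumour suppressor RUNX3, was the most abundant member, with 146 to 570 counts per library and a rank between 36 and 84 among the miRNAs of a library. It stood at 3096 and 3256 CPM in the 2 Hutu80 libraries, against 727, 1208 and 1757 CPM as the lowest, median and highest of the other 10 libraries. Both Hutu80 libraries thus lay above all the others.

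The fitted difference of miR-532-5p in Hutu80 was 1.40 ± 0.22, a 2.65-fold higher level (adjusted p = 1.71e-05). Across all lines the adjusted p was 0.000105. Both calls held in all 19 alternative fits, where the difference ran from 0.93 to 1.77 and its adjusted p from 1.28e-07 to 0.00455. No other line was called for miR-532-5p: the next closest were MDST8 at -0.62 ± 0.26 (adjusted p = 0.0525), SW1116 at -0.64 ± 0.26 (0.0577) and Car-1 at -0.57 ± 0.26 (0.0881). The Car-1 difference passed without Car-1 replicate 1 (adjusted p = 0.037) and without Hutu80 replicate 1 (0.0489) or 2 (0.0485). The MDST8 difference passed with library totals as the only scaling (0.042), in limma-voom (0.04) and with the replicate number as a block (0.0427). That in SW1116 passed in DESeq2 (0.026), in limma-voom (0.0455) and with library totals (0.000434).

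By mean level of miR-532-5p the lines followed the order Hutu80 (3176 ± 113 CPM), HT55 (1666 ± 128), RCM-1 (1527 ± 216), Car-1 (1012 ± 402), MDST8 (984 ± 192) and SW1116 (977 ± 75.8). Of the neighbours in this order, Hutu80 and HT55 differed (0.93 ± 0.32, adjusted p = 0.0292, with 30.8% of all tested miRNAs called in this pair). HT55 and RCM-1 (adjusted p = 0.897; 13.5% of all called), RCM-1 and Car-1 (0.151; 42.1%), Car-1 and MDST8 (0.918; 41.5%), and MDST8 and SW1116 (0.995; 34.9%) did not pass.

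The call of miR-532-5p between Hutu80 and HT55 held in fewer alternatives than that of Hutu80 against the mean of the other lines. Pairs of lines had 17 alternatives, as DESeq2 and limma-voom were not run on them. It ended without HT55 replicate 1 (adjusted p = 0.149) or 2 (0.499), RCM-1 replicate 1 (0.055), Hutu80 replicate 1 (0.22) or 2 (0.277), or one of Car-1 (0.111 without replicate 1, 0.133 without replicate 2). It also ended with no filter on low counts (0.711) and with the filter of 10 CPM in 2 libraries (0.0785). RCM-1 and Car-1 in turn passed without Car-1 replicate 1 (0.0446).

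miR-532-3p, from the other arm of the same hairpin, had 0 to 13 counts per library and 55 in all. It was at 54.5 and 0 CPM in the 2 Hutu80 libraries, against 0, 20.9 and 37.1 CPM as the lowest, median and highest of the other 10. It had 0 counts in HT55 replicate 1, Hutu80 replicate 2 and RCM-1 replicate 1, where 3 counts, the limit that a count of 0 allows, would be 26.0, 25.1 and 19.5 CPM. A difference of this arm between lines was not detectable at this depth.

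The 3 members of the miR-500 group share much of their 3p sequence, as printed above. miR-500a-3p, reported in liver cancer to raise STAT3 signalling by repressing its inhibitors, was at 556 and 444 CPM in Hutu80, against 75.0, 163 and 251 CPM as the lowest, median and highest of the other 10 libraries. In SW1116 it was at 95.7 and 75.0 CPM, against 130, 169 and 556 CPM as the lowest, median and highest of the libraries of the other lines. It therefore had libraries apart from the rest at both ends.

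The difference of miR-500a-3p was 1.71 ± 0.32 in Hutu80 (3.27-fold, adjusted p = 0.000121) and -1.33 ± 0.38 in SW1116 (adjusted p = 0.00983). The joint test across lines gave an adjusted p of 0.000647. The Hutu80 call ended without Hutu80 replicate 1 (adjusted p = 0.0523) and held in the other 18 alternative fits. The SW1116 call ended without SW1116 replicate 1 (0.0501) or 2 (0.168) and in the fit that kept every miRNA with a count (0.128). The call across lines ended without Hutu80 replicate 1 (0.0678) and in the fit of all counted miRNAs (0.0577). The other lines lay between, with HT55 at 209 ± 59.5 CPM and RCM-1 at 203 ± 45.0. MDST8 was at 154 ± 7.73 CPM and Car-1 at 148 ± 25.8. The libraries of HT55 and RCM-1 overlapped, as did those of MDST8 and Car-1. Between Hutu80 and HT55, neighbours by mean, the difference was 1.27 ± 0.46 (adjusted p = 0.0356). This pair passed in 2 of the 5 other settings in which pairs were fitted, and in only 1 of the 12 fits that left out a library. Its difference ran from 0.61 to 1.69 over 17 alternative fits.

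miR-501-3p, a miRNA known in rodent neurons for lowering a glutamate receptor subunit at synapses, was at 153 and 352 CPM in Hutu80, against 38.0, 104 and 225 CPM as the lowest, median and highest of the other 10. One Hutu80 library therefore lay inside the range of the other lines. In MDST8 it was at 38.0 and 75.1 CPM, below all 10 libraries of the other lines, whose lowest, median and highest were 84.3, 153 and 352 CPM.

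The fitted difference of miR-501-3p was 1.16 ± 0.41 in Hutu80 (2.23-fold, adjusted p = 0.0283) and -1.44 ± 0.47 in MDST8 (0.0153). The joint test gave 0.0167. Between Hutu80 and HT55, the next line by mean, the difference of 0.27 ± 0.55 did not pass (adjusted p = 0.759). The Hutu80 call rested on its deeper library: without Hutu80 replicate 2 the difference was 0.17 (adjusted p = 0.957). It also ended without Hutu80 replicate 1 (0.062) or RCM-1 replicate 1 (0.0623), and without replicate 1 or 2 of HT55 (0.0569 and 0.163), of Car-1 (0.129 and 0.137) and of SW1116 (0.0507 and 0.0591). In the other settings it ended with no filter (difference 0.67, 0.591), with 10 CPM in 2 libraries (0.0747), in DESeq2 (0.0916) and in limma-voom (0.0558).

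The lower level of miR-501-3p in MDST8 lost its call without Car-1 replicate 1 (adjusted p = 0.0554), MDST8 replicate 1 (0.237) or Hutu80 replicate 2 (0.0852), and with no filter (0.068). The joint call ended without HT55 replicate 2 (0.0594), Car-1 replicate 1 (0.069), MDST8 replicate 1 (0.0717) or Hutu80 replicate 2 (0.162). It ended in DESeq2 (0.051) and in the unfiltered fit (0.183) as well.

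miR-502-3p, the last of the group and the one nearest to miR-500a-3p in sequence, had 3 to 20 counts per library. It was at 43.6 and 83.7 CPM in Hutu80, against 9.49, 34.7 and 58.9 CPM as the lowest, median and highest of the other 10. The Hutu80 libraries overlapped those of other lines, and the difference there, 0.92 ± 0.68, did not pass (adjusted p = 0.316). Its lowest line was MDST8, at 9.49 and 21.9 CPM, below the other 10 libraries, with a difference of -1.48 ± 0.74 that did not pass either (0.108).

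miR-660-5p, reported in lung cancer to act on the p53 inhibitor MDM2, was at 392 and 343 CPM in Hutu80, against 84.3, 168 and 236 CPM as the lowest, median and highest of the other 10 libraries. Both Hutu80 libraries lay above the rest. After Hutu80 (368 ± 34.9 CPM), line means ran through RCM-1 (232 ± 5.47 CPM), HT55 (179 ± 8.66), MDST8 (165 ± 30.2) and Car-1 (148 ± 19.4) to SW1116 (109 ± 34.8), whose libraries, at 134 and 84.3 CPM, lay below the other 10 (135 CPM and up).

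The difference of miR-660-5p in Hutu80 was 1.18 ± 0.33 (2.26-fold, adjusted p = 0.00703), and the joint test gave 0.0236. Against RCM-1 alone, the next line, the difference of 0.66 ± 0.45 did not pass (adjusted p = 0.258). The Hutu80 call ended without HT55 replicate 2 (0.0722), Car-1 replicate 1 (0.0726) or 2 (0.0697), Hutu80 replicate 1 (0.283) or 2 (0.166), and with no filter, where the difference was 0.70 (0.416). The joint call ended without HT55 replicate 1 (0.0551) or 2 (0.218), Car-1 replicate 1 (0.195) or 2 (0.187), MDST8 replicate 2 (0.0503), SW1116 replicate 2 (0.108), and Hutu80 replicate 1 (0.342) or 2 (0.216). Among the other settings it ended with no filter (0.907), with 10 CPM in 2 libraries (0.124) and in DESeq2 (0.0645). In SW1116 the difference was -0.91 ± 0.37 (adjusted p = 0.0568), which passed with library totals (0.0024) and in limma-voom (0.0368).

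miR-362-5p, reported to repress CYLD, a negative regulator of NF-kB signalling, was called in no line. It was at 109 and 151 CPM in Hutu80, against 75.9, 144 and 239 CPM as the lowest, median and highest of the other 10 libraries. The libraries of the lines overlapped, and the difference in Hutu80 was -0.13 ± 0.45 (adjusted p = 0.851). Across lines the adjusted p was 0.816, with the lowest line mean in MDST8 (116 ± 57.0 CPM) and the highest in Car-1 (192 ± 66.8). Over all libraries this miRNA was not short of counts relative to other members, with 415 against 362 for miR-501-3p. In Hutu80, however, it had 28 counts, against 56 for miR-501-3p. An adjusted p of this size does not show that its level was equal between lines. In Car-1 its difference was 0.53 (adjusted p = 0.321), and it passed with library totals as the only scaling (1.15, adjusted p = 0.0193), a scaling that moved the median of all miRNAs in Car-1 by 0.62.

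The other 9 mature arms of the 8 hairpins were sparse. miR-188-3p had 0 counts in all 12 libraries, and miR-188-5p had 9 in all. miR-362-3p and miR-660-3p had 4 each, miR-502-5p 19, miR-500b-3p 21 and miR-500b-5p 29. The 18 bases of miR-500b-5p are contained in the 23 of miR-500a-5p, so counts of these arms could be divided between 2 hairpins. miR-500a-5p (117 counts) and miR-501-5p (131) were the only other arms tested.

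miR-501-5p was at 142 and 117 CPM in Hutu80, against 0, 44.2 and 72.9 CPM as the lowest, median and highest of the other 10 libraries. Both Hutu80 libraries lay above the rest. The difference was 1.80 ± 0.68 (adjusted p = 0.0399). This call ended in DESeq2 (0.105) and in the fit of all counted miRNAs (0.238). Among left-out libraries, it ended without replicate 1 or 2 of Hutu80 (0.274 and 0.191) or of Car-1 (0.0797 and 0.0521), without HT55 replicate 2 (0.102) and without SW1116 replicate 1 (0.0702). miR-500a-5p was at 76.3 and 67.0 CPM in Hutu80, inside the range of the other 10 (19.5 to 81.0 CPM), with a difference of 0.91 ± 0.65 (adjusted p = 0.293).

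In every library miR-532-5p was the largest part of the cluster. It took 70.3% ± 0.033 (SD, n = 2) of the counts of the 7 members in Hutu80, 67.5% ± 0.11 in HT55, 66.4% ± 1.51 in RCM-1, 59.4% ± 3.92 in Car-1, 65.1% ± 6.89 in MDST8 and 66.8% ± 3.35 in SW1116. Over the 12 libraries miR-660-5p ranged from 5.66% to 11.7% of these counts, miR-500a-3p from 5.03% to 12.6%, miR-501-3p from 2.37% to 8.64%, miR-502-3p from 0.593% to 3.56% and miR-532-3p from 0% to 2.02%. The members are of 22 to 24 bases where their sequence was found, so their counts need no correction for length. miR-362-5p took 2.48% and 3.25% in the Hutu80 libraries, which were its lowest shares, and 11.5% and 11.2% in the Car-1 libraries.

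**Figure D3:**
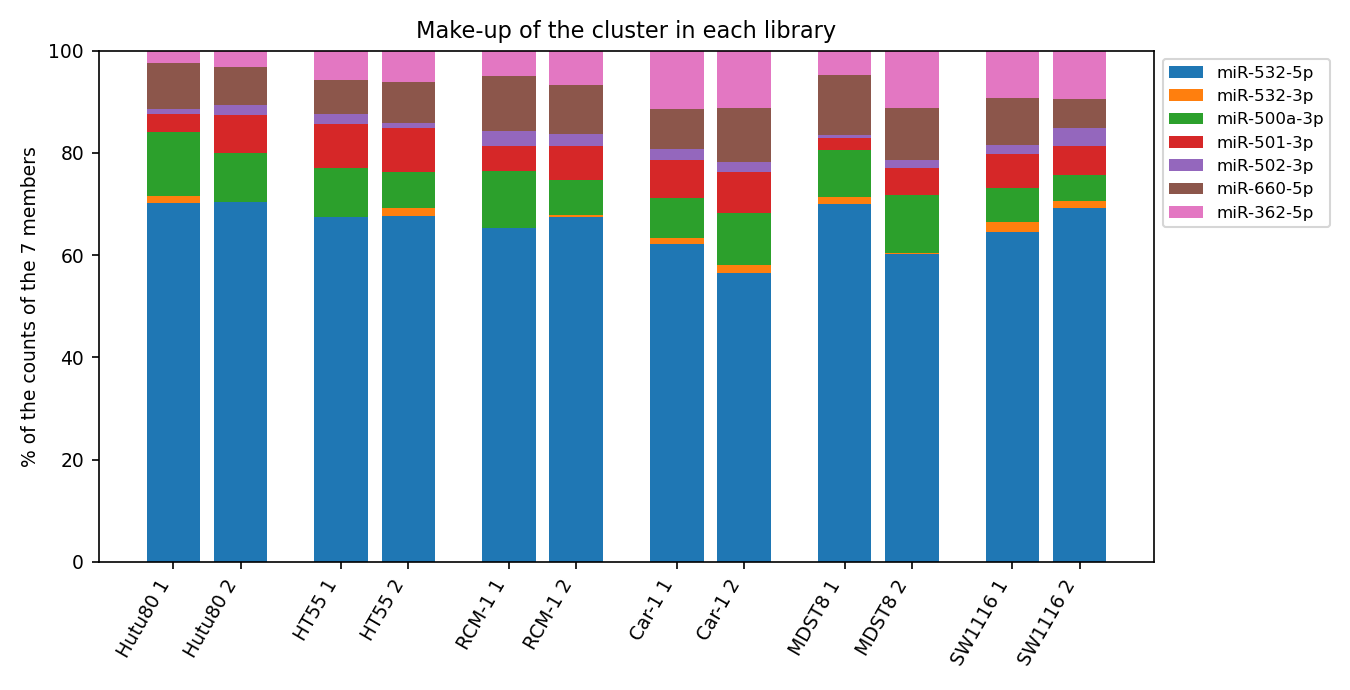
Percent of the counts of the 7 members (y axis, 0 to 100) that each member took in each library (x axis, named by line and replicate). miR-532-5p takes 56.6% to 70.3% in all 12 libraries, and the share of miR-362-5p runs from 2.48% to 11.5%.

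The ratio of a member to miR-532-5p in the same library does not depend on how libraries are scaled. It was compared between lines for each of the other 6 members on the log2 scale (0.5 counts added to each), with an exact permutation test over every way of forming 6 pairs from 12 libraries, in which the smallest possible p is 9.62e-05. For miR-362-5p there were 4.07 ± 0.78 counts per 100 of miR-532-5p in Hutu80 (SD, n = 2), 8.75 ± 0.53 in HT55, 8.79 ± 1.71 in RCM-1, 19.2 ± 1.01 in Car-1, 12.6 ± 8.25 in MDST8 and 13.9 ± 0.41 in SW1116. Car-1 and Hutu80 thus lay at opposite ends, with MDST8 libraries far apart from each other. The exact permutation p was 0.0275, or 0.165 adjusted over the 6 ratios, so this difference did not pass the correction. Among the alternatives it passed only where either MDST8 library was left out, which takes the spread of that line out of the test. With miR-660-5p in place of miR-532-5p as the denominator, the adjusted exact permutation p was 0.43.

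None of the other 5 ratios passed either. miR-660-5p ranged from 10.8 ± 1.35 counts per 100 of miR-532-5p in HT55 to 16.8 ± 0.22 in MDST8 (exact permutation p = 0.287, adjusted 0.373). miR-500a-3p ranged from 8.82 ± 2.18 in SW1116 to 16.0 ± 3.92 in MDST8 (exact permutation p = 0.311, adjusted 0.373). miR-501-3p ranged from 6.12 ± 3.87 in MDST8 to 13.1 ± 1.77 in Car-1 (exact permutation p = 0.225, adjusted 0.373). In Hutu80 these ratios were 11.6 ± 1.51, 15.8 ± 3.06 and 7.86 ± 4.15 for miR-660-5p, miR-500a-3p and miR-501-3p. The exact permutation p was 0.289 for miR-502-3p and 0.503 for miR-532-3p. On the log2 scale the SD between the 2 libraries of a line was 0.31 for miR-660-5p, 0.37 for miR-500a-3p and 0.53 for miR-501-3p.

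Members moved together across the lines to differing degrees. Over the 6 line means of log2 CPM, Pearson's r was 0.98 between miR-500a-3p and miR-660-5p (Spearman's rho 0.94), 0.93 between miR-532-5p and miR-500a-3p (0.83), 0.91 between miR-532-5p and miR-660-5p (0.77) and 0.81 between miR-532-5p and miR-501-3p (0.83). miR-362-5p had r of -0.18 with miR-532-5p and -0.25 with miR-660-5p, and miR-532-3p, with its few counts, had r of -0.30 with miR-532-5p. The median r over the 15 pairs of tested members was 0.62, against -0.01 over all 50403 pairs of tested miRNAs. Of the 15 pairs, 5 had an r above 0.7, as had 9.79% of all pairs. The points are 6 lines that share libraries and scaling across members, and these values are a description.

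Without Hutu80, over 5 lines, r was 0.93 between miR-500a-3p and miR-660-5p, 0.75 between miR-532-5p and miR-500a-3p, 0.72 between miR-532-5p and miR-660-5p and 0.76 between miR-532-5p and miR-501-3p, and the median over the tested pairs was 0.49. Other clusters were set beside this one over all 6 lines, where the median r of the tested members was 0.62. Over these lines the 15 pairs of the MCM7 cluster (miR-106b, miR-93 and miR-25, both arms of each) had a median r of 0.35. The 6 pairs of miR-221 and miR-222, both arms of each, from another part of the short arm of the X chromosome, had 0.64. The GABRE cluster, on the long arm of the X chromosome, gave 1 tested pair, miR-224-5p and miR-452-5p, with an r of 0.97. The differences between these values were not tested.

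**Figure D4:**
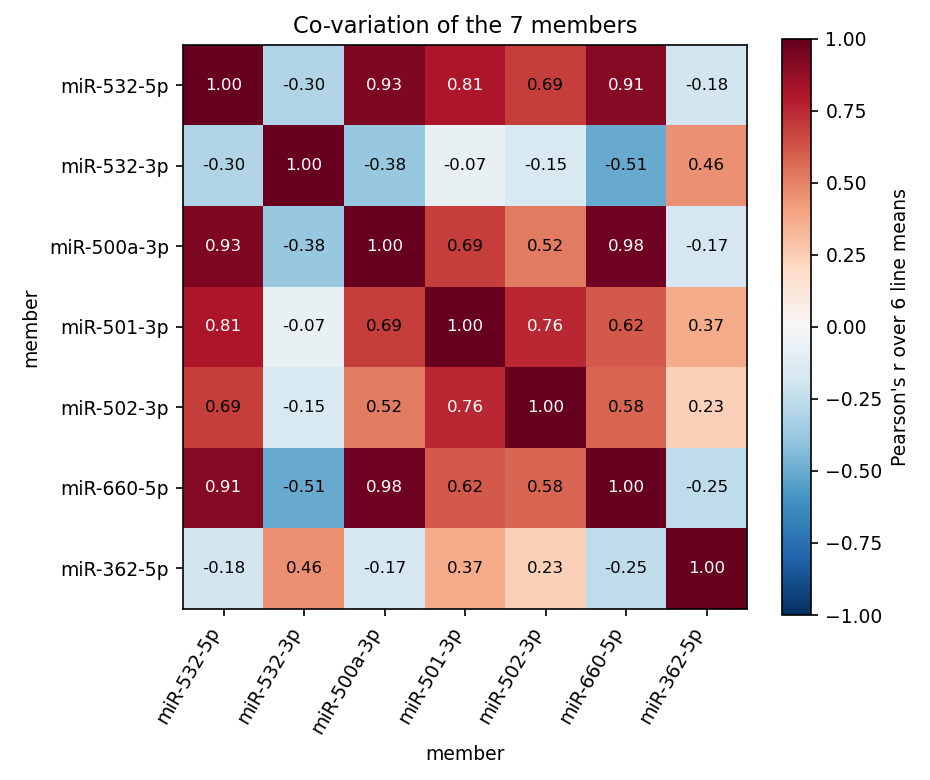
Pearson's r (colour and number) between each pair of the 7 members over the 6 line means of log2 CPM. The block of miR-532-5p, miR-500a-3p and miR-660-5p holds values of 0.91 to 0.98, while miR-362-5p has values of -0.25 to 0.46 with the other members.

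Among 196 tested miRNAs outside the cluster with a mean of at least 100 CPM, the pattern most like the log2 sum of the 7 members over the 6 lines was that of miR-25-5p (r = 0.88, rho 0.94). It is the minor arm of a hairpin in the MCM7 cluster. It was at 326 ± 107 CPM in Hutu80 and between 55.1 ± 2.64 (MDST8) and 199 ± 111 (HT55) in the other lines. The next were miR-423-3p (r = 0.86), miR-19b-3p (0.84), miR-425-3p (0.82) and miR-1262 (0.80). The last of these was high in Hutu80 alone, at 1690 ± 617 CPM against 24.9 to 46.6 in the other lines, and without Hutu80 its r was -0.89. The least like were miR-574-3p (r = -0.94), miR-185-5p (-0.91) and miR-151a-5p (-0.90). Each member was compared instead with the sum of the other 6 members, without the minimum of 100 CPM. There r was 0.96 for miR-532-5p, 0.94 for miR-500a-3p, 0.91 for miR-660-5p and 0.80 for miR-501-3p. It was 0.69 for miR-502-3p, -0.14 for miR-362-5p and -0.30 for miR-532-3p. For members other than miR-532-5p, most of that sum was miR-532-5p itself.

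Library depth moved with the share of the cluster in the unscaled counts, and less closely with its TMM-scaled level. The 7 members summed to 404 and 553 counts in Hutu80, 0.562% (95% Wilson interval 0.510 to 0.620) and 0.550% (0.506 to 0.598) of the library, although these were the shallowest libraries. In SW1116, the deepest, they summed to 644 and 477 counts, 0.103% (0.0957 to 0.112) and 0.0957% (0.0875 to 0.105). Over the 6 line means the log2 share of the 7 members and the log2 total had a Pearson's r of -0.97 and a Spearman's rho of -1, and without the 2 lines farthest from the median total r was -0.92 (4 lines). On TMM-scaled levels, the scale of the calls, the log2 sum of the 7 members and the log2 total had an r of -0.81 and a rho of -0.83. Without the 2 lines farthest from the median total, Hutu80 and SW1116, this r was -0.31. The 4 lines left span a narrower range of depth, so this change in r cannot show what the relation rests on.

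The 4 members called higher in Hutu80 each had an r between -0.92 and -0.96 of unscaled log2 CPM with log2 total. They were picked as high in the line with the shallowest libraries, so a negative r was in part given by that choice. They were not set against the other miRNAs called higher in Hutu80. An r below -0.9 was found for 15 of 318 tested miRNAs (4.72%), and the median over all was -0.36. On TMM-scaled levels the r of these members was -0.88 for miR-500a-3p, -0.79 for miR-660-5p, -0.77 for miR-501-3p and -0.76 for miR-532-5p, with a median of -0.04 over all tested miRNAs. miR-362-5p had -0.69 unscaled and -0.28 scaled, and miR-502-3p had -0.73 unscaled and -0.44 scaled.

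Within lines, the deeper library of a line had the higher share of the 7 members in 5 of 6 lines, and the higher TMM-scaled sum in 4 of 6. The Wilson intervals of the share overlapped within HT55, MDST8, SW1116 and Hutu80, but not within Car-1 or RCM-1. In RCM-1, whose libraries differed the most in depth, the share was 0.227% at 372549 counts and 0.187% at 172320. In Hutu80 it was 0.550% at 100531 counts and 0.562% at 71831. Depth and line cannot be told apart in the comparison between lines.

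**Figure D5:**
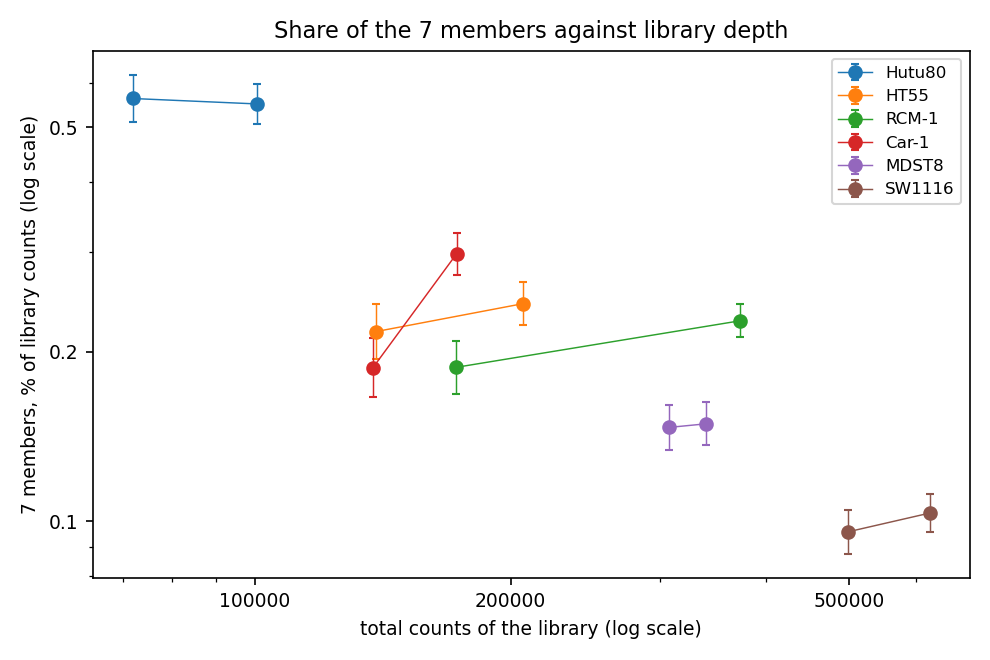
Share of library counts taken by the 7 members (y axis, log scale, with 95% Wilson intervals) against total counts of the library (x axis, log scale); lines join the 2 libraries of a line. Over the line means the share is lower where depth is higher, with library values of 0.562% and 0.550% in Hutu80 and 0.103% and 0.0957% in SW1116, while within 5 of 6 lines the deeper library has the higher share.

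The medium held serum, and miRNAs of blood cells, liver and endothelium were found in the vesicle libraries. The 4 red cell miRNAs (miR-451a, miR-144-3p, miR-144-5p and miR-486-5p) summed to 3187 ± 565 CPM in Hutu80, 4841 ± 522 in HT55, 1810 ± 581 in RCM-1, 3392 ± 284 in Car-1, 1565 ± 208 in MDST8 and 1662 ± 331 in SW1116, with miR-144-3p at 0 in RCM-1, MDST8 and SW1116. The 4 leukocyte miRNAs (miR-223-3p, miR-142-3p, miR-142-5p and miR-150-5p) summed to 820 ± 58.6 CPM in Hutu80, against line means of 416 to 1130 in the others. The liver miRNA miR-122-5p was at 33.1 ± 0.55 CPM in Hutu80, against 15.8 to 74.9, and the endothelial miR-126-3p at 263 ± 18.0, against 110 to 212. For miR-126-3p, where Hutu80 had the highest line mean, the difference of 0.68 ± 0.38 did not pass (adjusted p = 0.166). miR-144-3p had 1 count in Hutu80 and was not tested. The smallest adjusted p in Hutu80 among the 9 of these 10 miRNAs that were tested was 0.142, for miR-486-5p (0.44 ± 0.23). In edgeR's joint test across the lines, miR-150-5p (adjusted p = 1.47e-06) and miR-486-5p (5.14e-05) were called and the others were not (68.2% of all tested miRNAs were). The highest line mean of miR-150-5p was in RCM-1, at 649 ± 116 CPM. The part of these 10 miRNAs in the levels of the cluster was not tested.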

How the data were processed

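Small RNA libraries (IsoSeek, a protocol that adds unique molecular identifiers) were sequenced from vesicles of 6 lines, 2 libraries each. The authors deposited a table of whole-number counts per mature miRNA; the submitters' processing notes name hg38 as build. Which aligner and annotation were used, and if identical identifiers were collapsed, is not given in the sources used here; reads that are not collapsed are not independent molecules, and the intervals cover only counting error. A table of log2 values, also deposited, was equal to log2(CPM + 1) computed from the counts (largest difference 5e-14) and was not used further.

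edgeR 4.0.16 (filterByExpr by line, TMM factors, robust quasi-likelihood F-tests, 1 mean per line, no block) was fitted to 318 miRNAs, limma 3.58.1 and DESeq2 1.42.0 being alternatives. The SE is the difference divided by the square root of F. Other filters were set beside filterByExpr: none, and 10 CPM in 2 libraries, which is looser. Line means for correlations used log2 CPM with a prior count of 2. The fit and the permutation test were tested on simulated data. The replicates of a line differed by more than sampling noise (chi-square per degree of freedom 8.10 to 51.2). The members and comparison lists were chosen with earlier results of these data known. The text names all members and arms, and the 5 most and 3 least similar miRNAs of at least 100 CPM. Sequences are from RefSeq (GRCh38.p14), positions from GENCODE 29.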

Additional observations from a re-analysis of the deposited data

How the results depend on the processing

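The calls of miR-532-5p across lines and in Hutu80 held in all 19 alternatives, and no called difference of a single member changed sign in any of them. The number of members called across lines (4) was 1 with no filter on low counts and 2 in DESeq2, and 2 to 4 with a library left out. The number higher in Hutu80 (4) was 2 with no filter and 1 to 4 with a library left out. The number lower in MDST8 (1) was 0 with no filter, 2 with library totals as the only scaling, in limma-voom and with the replicate block, and 0 to 1 with a library left out. The number lower in SW1116 (1) was 0 with no filter, 2 in DESeq2, 3 in limma-voom, 4 with library totals, and 0 to 1 with a library left out. In Car-1, 0 were called, against 1 higher with library totals, and 0 to 1 lower with a library left out. Library totals moved the median difference of all miRNAs by 0.62 in Car-1, 0.35 in Hutu80, -0.17 in RCM-1 and -0.66 in SW1116, and RLE factors by 0.12 in MDST8. The number higher in Hutu80 also fell with 10 CPM in 2 libraries, in DESeq2 and in limma-voom, where miR-501-3p was not called. The number across lines also fell with the 10 CPM filter, where miR-660-5p was not called. The cause of these changes was not tested.

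The adjusted p of the ratio of miR-362-5p to miR-532-5p (0.165) ran from 0.00404 to 0.459 with a library left out and was 0.067 with the replicate block (the ratio centred by replicate number). Replicate numbers did not pair the libraries: deviations of same-numbered libraries had a median correlation of 0.06 over 15 pairs of lines (-0.23 to 0.27; 5 above 0.1), and the labels give no shared batch. The median r of the tested member pairs (0.62) ran from 0.49 without Hutu80 to 0.77 with library totals. The neighbour tests under other settings were added after seeing the data. Among the 7 members miR-532-3p (55) and miR-502-3p (108) had the fewest counts. The TMM-scaled depth relation and the alternatives of the intestinal miRNAs were also added after seeing the data. A library left out leaves its line with 1 library, assumed to vary like the others.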
